A study of Mus musculus with 21 samples.

Results

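The genes described here are 9 adhesion and junction genes of the mouse: the cadherins Cdh1 and Cdh2, the epithelial adhesion molecule Epcam, the intermediate filament gene Vim, the claudins Cldn6 and Cldn7, and the connexins Gja1, Gjb5 and Gjc1. They were taken by symbol, and all 9 were found among the 31053 gene IDs of the count tables. Cadherins join neighbouring cells through calcium-dependent contacts, with catenins linking them to actin. Claudins seal tight junctions, and connexins form gap junction channels that pass small molecules between cells. Embryonic stem cells grow as compact colonies held together by E-cadherin, the product of Cdh1, whereas N-cadherin (Cdh2) and vimentin (Vim) are known from mesenchymal cells and are commonly read against Cdh1 in epithelial-to-mesenchymal transition.

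Messenger RNA was sequenced in 21 libraries of E14Tg2a, mouse embryonic stem cells that are male and of 129 background and have a destabilised green fluorescent protein knocked into 1 allele of the Rex1 locus in every group. The study concerned culture conditions that keep such cells pluripotent, and the 7 groups of 3 replicates were 2i+LIF PO and the media 2i+LIF, CH+LIF and LIF, each at LP and at HP. CH is CHIR99021, an inhibitor of GSK3, LIF is a cytokine acting through STAT3, and 2i usually denotes CHIR99021 together with PD0325901, an inhibitor of MEK. All libraries share a growth protocol of NDiff227 medium with both inhibitors, followed by passages with agents alternately given and withdrawn. CHIR99021 is recorded at 3 µM for all 21 libraries, those of the LIF groups included. The letters PO, LP and HP are not spelled out in the labels. The design gives zero passage and a pair of longer cultures, and PO was read as zero passage. The labels do not say that replicates were separate cultures, so p-values measure the spread between these libraries, which may be technical.

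Gene counts per library ranged from 1132126 to 3783043, with a median of 1763531. Of 9 embryonic stem cell markers, all 9 had counts in every group, summing to between 1330 and 3870 CPM (counts scaled to a common library size of 1e+06 counts of the genes tested). Libraries that stood apart from the others of their group were 2i+LIF PO replicate 1, with 39.1% of gene counts from mitochondrial genes and a mean correlation of 0.83 with its replicates, and 2i+LIF LP replicate 1, with 31.7% from Gm42418 and a correlation of 0.787. The file names of the 3 PO libraries carry another number than those of the other 18. That number was read as the sequencing run, and run and PO cannot be told apart in any comparison with PO.

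Of the 9 genes, 6 had enough counts to be tested: Cdh1, Epcam, Vim, Gja1, Gjb5 and Gjc1. Among the 6 groups cultured at LP or HP, Gja1 and Epcam differed in a joint test (edgeR adjusted p 0.00401 and 0.0251), which is 2 of 6 genes against 13.1% of all 10643 genes tested. Gja1 had no counts at all in LIF HP, and Epcam was lowest there and highest in the other media at HP. Vim was higher in all 6 cultured groups than in PO, by 1.71 to 3.39 on the log2 scale. Cdh1 was the most abundant of the 9 in PO and was lower than PO in CH+LIF LP, LIF LP and LIF HP. In bulk RNA, fewer cells of a type and less RNA per cell cannot be told apart.

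Divided by the length of each gene's merged exons, levels in PO spanned more than 3 orders of magnitude. Cdh1 reached 232 CPM per kilobase, Gjc1 28.3, Gjb5 12.7, Vim 10.1 and Epcam 8.40. Cldn7 reached 0.523 CPM per kilobase, Gja1 0.384, Cldn6 0.251 and Cdh2 0.0868. In LIF HP, Cdh1 was again first at 98.8 CPM per kilobase and Vim was second at 33.4, ahead of Gjb5 at 14.9 and Gjc1 at 10.8. The labels do not say whether fragments covered whole transcripts, and division by length would not apply to fragments from transcript ends alone.

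**Figure D1:**
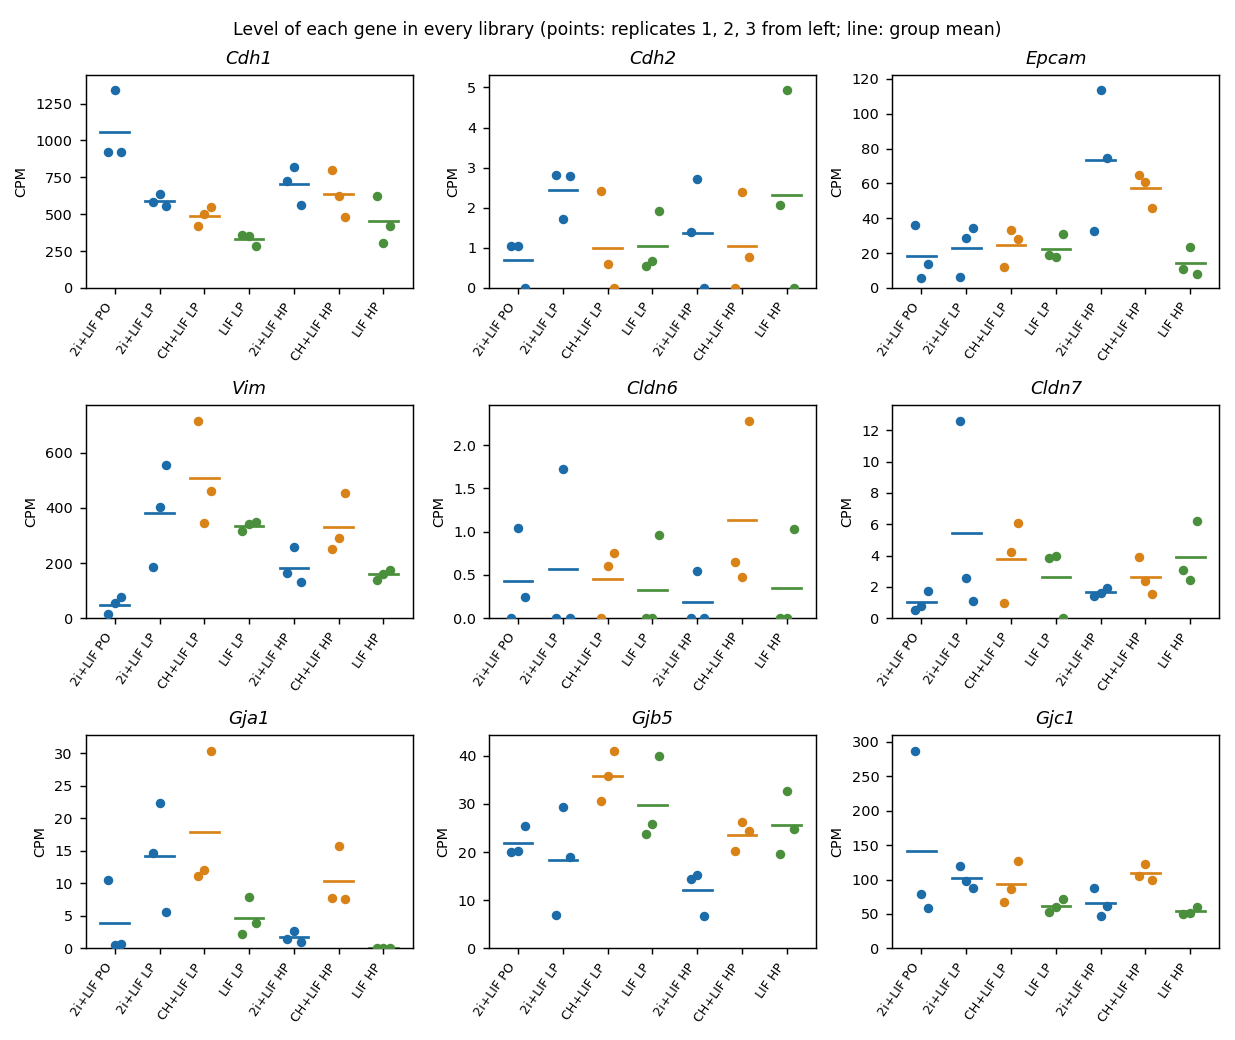
Level of each of the 9 genes in CPM (vertical axes, linear and different for each gene) in the 7 groups (horizontal axis), with 1 point per library (replicates 1, 2 and 3 from the left) and a line at the group mean. Gja1 sits at 0 in the 3 LIF HP libraries, Vim is lowest in the 3 PO libraries, and the Cdh2 and Cldn6 panels span only a few CPM.

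Cdh1 (ENSMUSG00000000303, GRCm38 chromosome 8, 106603351 to 106670246, plus strand) encodes E-cadherin. Its levels in PO were 922, 1340 and 919 CPM in replicates 1, 2 and 3. At LP they were 581, 638 and 559 CPM in 2i+LIF, 421, 502 and 548 in CH+LIF, and 358, 353 and 285 in LIF. At HP they were 726, 819 and 560 CPM in 2i+LIF, 801, 625 and 480 in CH+LIF, and 627, 306 and 424 in LIF. All 3 PO libraries lay above all 18 others, and the 3 media at LP did not overlap one another, in the order 2i+LIF, CH+LIF, LIF. At HP the ranges of the 3 media overlapped. By mean level the groups ran from PO through 2i+LIF HP, CH+LIF HP, 2i+LIF LP, CH+LIF LP and LIF HP to LIF LP, and of neighbours in that order only PO and 2i+LIF HP, and 2i+LIF LP and CH+LIF LP, did not overlap.

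Cdh1 was lower than in PO by 1.68 ± 0.34 on the log2 scale (SE) in LIF LP (edgeR adjusted p 0.00207), by 1.23 ± 0.33 in LIF HP (adjusted p 0.0175) and by 1.11 ± 0.33 in CH+LIF LP (adjusted p 0.0378). The LIF LP difference passed under all 30 alternative analyses, with adjusted p of at most 0.0246. The LIF HP difference did not pass without PO replicate 2 (edgeR adjusted p 0.0537), LIF HP replicate 2 (0.117) or LIF HP replicate 3 (0.0791), nor in a fit of only those groups (0.122). The CH+LIF LP difference did not pass under 11 of 30 alternatives, among them the omission of any CH+LIF LP library (0.0764 to 0.14) or of PO replicate 2 (0.122). Between cultured groups the largest Cdh1 difference at LP was that of LIF from 2i+LIF, at -0.84 ± 0.33 on the log2 scale, which did not pass (edgeR adjusted p 0.293) although the libraries did not overlap. The joint test over the 6 cultured groups gave an adjusted p of 0.159 for Cdh1 with edgeR and 0.0191 with DESeq2.

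Cdh2 (ENSMUSG00000024304, chromosome 18, 16588877 to 16809246, minus strand), which encodes N-cadherin, had between 0 and 8 counts per library and was not tested. Its group means ran from 0.700 CPM in PO to 2.44 CPM in 2i+LIF LP, and 5 libraries from 5 groups had none. Each of those zeros allows up to 3 counts, or between 0.748 and 3.09 CPM depending on the library. All 3 libraries of 2i+LIF LP (13 counts in all) lay above all 3 of PO (6 counts), whereas every group overlapped its neighbour in the order of mean levels. An antisense gene, Gm15485, overlaps Cdh2 without sharing an exon, and the strand setting of the counting is not given in the sources used here.

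Vim (ENSMUSG00000026728, chromosome 2, 13573927 to 13582826, plus strand) encodes vimentin, the main intermediate filament protein of mesenchymal cells. In PO its levels were 13.7, 53.9 and 76.0 CPM. At LP they were 187, 404 and 554 CPM in 2i+LIF, 717, 347 and 459 in CH+LIF, and 316, 341 and 350 in LIF. At HP they were 163, 257 and 131 CPM in 2i+LIF, 250, 292 and 455 in CH+LIF, and 139, 161 and 176 in LIF. The 3 PO libraries lay below all 18 others, and replicate 1, the library rich in mitochondrial counts, was the lowest of them. In 2i+LIF LP the lowest value was that of replicate 1, the other library that stood apart.

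Against PO, Vim was higher by 3.39 ± 0.49 on the log2 scale in CH+LIF LP (edgeR adjusted p 0.00016), 2.98 ± 0.48 in 2i+LIF LP (0.000813) and 2.79 ± 0.48 in LIF LP (0.000492). At HP the differences from PO were 2.78 ± 0.48 in CH+LIF (edgeR adjusted p 0.00129), 1.93 ± 0.47 in 2i+LIF (0.00937) and 1.71 ± 0.47 in LIF (0.0178). The differences of CH+LIF LP, LIF LP and CH+LIF HP passed under all 30 alternatives. The others did not pass in fits of only the groups compared (0.235 for 2i+LIF LP, 0.0864 for 2i+LIF HP and 0.0631 for LIF HP). The LIF HP difference was also lost without PO replicate 1 (1.26 on the log2 scale, edgeR adjusted p 0.0706), LIF HP replicate 2 (0.0618) or LIF HP replicate 3 (0.0617). All 6 differences share the PO libraries and carry any difference of run.

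Among cultured groups Vim did not pass the joint test (edgeR adjusted p 0.062), but it passed with DESeq2 (0.0128), with limma-voom and sample quality weights (0.00394) and without both libraries that stood apart (0.000406). It also passed without 2i+LIF LP replicate 1 alone (edgeR adjusted p 0.017) and without PO replicate 1 (0.00805) or 3 (0.0483). Mean Vim was lower at HP than at LP in each medium: 184 against 382 CPM in 2i+LIF, 332 against 508 in CH+LIF and 158.5 against 336 in LIF. The LIF libraries did not overlap, yet none of these HP-to-LP differences passed (edgeR adjusted p 0.225, 1 and 0.125). Without both libraries that stood apart, Vim was lower at HP in 2i+LIF by 1.38 and in LIF by 1.097 on the log2 scale (edgeR adjusted p 0.00959 and 0.0108). Both differences also passed with limma-voom (0.0492 and 0.0083). The LIF difference passed as well in a fit of only the groups compared (edgeR adjusted p 0.00185) and without PO replicate 1 (0.0388).

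The 250 bases upstream of the RefSeq start of Vim are shown because Vim had the largest differences from PO among the tested genes with counts in every group. The window is chr2:13574061-13574310 on GRCm38.p6, plus strand, 5′ to 3′, and lies inside the GENCODE gene, whose annotated start is further upstream. Capitals mark a TATA box (TATAAA, 32 bases before the start) and CCAAT motifs on the plus strand and, as ATTGG, on the minus strand.
Vim: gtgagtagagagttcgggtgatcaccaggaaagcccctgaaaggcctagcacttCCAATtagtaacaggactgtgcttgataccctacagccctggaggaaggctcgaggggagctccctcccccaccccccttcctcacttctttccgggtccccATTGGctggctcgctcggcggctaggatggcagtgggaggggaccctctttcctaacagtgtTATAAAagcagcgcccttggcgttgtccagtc
Of 32851 such windows in the RefSeq table, 12.4% hold TATAAA and 33.8% hold CCAAT, counting both strands. Windows were also searched for an E-box of the kind that Snai and Zeb factors bind (CAGGTG, in 17.2% of windows), a GC box (GGGCGG, 32.7%), an AP-1 motif (TGANTCA, 6.75%) and a TCF motif (CTTTGA, 13.8%). A match describes the letters and is not a shown binding site.

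Epcam (ENSMUSG00000045394, chromosome 17, 87635979 to 87651129, plus strand) encodes a transmembrane adhesion protein of epithelia and of embryonic stem cells that binds claudins. In PO its levels were 35.9, 5.75 and 13.7 CPM. At LP they were 6.31, 28.4 and 34.7 CPM in 2i+LIF, 12.1, 33.3 and 28.1 in CH+LIF, and 18.7, 17.9 and 30.8 in LIF. At HP they were 32.5, 113 and 74.8 CPM in 2i+LIF, 64.9, 61.1 and 45.7 in CH+LIF, and 10.8, 23.4 and 8.24 in LIF. The 3 media overlapped at LP, whereas at HP all 3 LIF libraries lay below all 6 libraries of 2i+LIF and CH+LIF. In the order of mean levels, CH+LIF HP and CH+LIF LP were the only neighbours that did not overlap.

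At HP, Epcam averaged 14.2 CPM in LIF and 73.6 CPM in 2i+LIF, a log2 difference of -2.35 ± 0.61 (SE, edgeR adjusted p 0.0286), 1 of 6 genes tested where 3.78% of all genes were called. The call was lost without 2i+LIF HP replicate 2 (edgeR adjusted p 0.129) or replicate 3 (0.0628), and without LIF HP replicate 1 (0.09) or replicate 3 (0.136). Without the same 4 libraries Epcam no longer passed the joint test (edgeR adjusted p 0.1, 0.0544, 0.0543 and 0.0604 in that order). The log2 difference of LIF HP from CH+LIF HP was -1.99 ± 0.60 and did not pass (edgeR adjusted p 0.105). It passed with DESeq2 (0.0381), with limma-voom (0.00183), without both libraries that stood apart (0.00718) and without PO replicate 1 or 2i+LIF LP replicate 1 alone (0.0423 and 0.038). The 2i+LIF HP group was higher than PO by 2.04 ± 0.58 on the log2 scale (edgeR adjusted p 0.0262) although libraries overlapped. That call was lost without 2i+LIF HP replicate 2 (0.131) or 3 (0.082) and without PO replicate 2 (0.101) or 3 (0.0863). A fit of only those groups (0.105) and counts thinned to the smallest library lost it too. With 1 library left out, the log2 difference ranged from 1.57 to 2.90.

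The window upstream of Epcam is shown because its level differed between media at HP and because it holds the CAGGTG motif named above. It is chr17:87635729-87635978 on GRCm38.p6, plus strand, ending at the base before the annotated start. Capitals mark the E-box on the minus strand (CACCTG, 187 bases before the start) and on the plus strand (CAGGTG, 19 bases before it), and a GC box on the minus strand (CCGCCC, 58 bases before it).
Epcam: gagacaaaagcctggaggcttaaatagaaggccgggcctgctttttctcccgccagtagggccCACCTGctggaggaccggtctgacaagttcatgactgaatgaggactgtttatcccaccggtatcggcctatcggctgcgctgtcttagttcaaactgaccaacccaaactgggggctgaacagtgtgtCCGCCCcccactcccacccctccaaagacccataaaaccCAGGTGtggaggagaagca
The same E-box letters occurred in the window of Cldn6 and in a window of Cldn7 that lies inside the gene. The Cldn7 window that ends before the annotated start held none, nor did the windows of Vim, Gja1 and Gjb5. Cdh1, Cdh2 and Gjc1 had no window.

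Cldn6 (ENSMUSG00000023906, chromosome 17, 23679249 to 23682446, plus strand) and Cldn7 (ENSMUSG00000018569, chromosome 11, 69964779 to 69967885, plus strand) encode tight junction claudins, and Cldn7 is a binding partner of the Epcam protein. Cldn6 had between 0 and 4 counts per library, with group means from 0.182 CPM in 2i+LIF HP to 1.14 CPM in CH+LIF HP. Cldn7 had between 0 and 18 counts per library. Its highest value, 12.6 CPM, was that of 2i+LIF LP replicate 1, a library that stood apart, and the others reached at most 6.18 CPM. Mean Cldn7 was 1.02 CPM in PO and 1.65 CPM in 2i+LIF HP, where Epcam was highest. Neither claudin was tested, and every group overlapped its neighbour in the order of mean levels.

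Gja1 (ENSMUSG00000050953, chromosome 10, 56377330 to 56402513, plus strand) encodes connexin 43, a widely expressed gap junction protein. In PO its levels were 10.6, 0.523 and 0.748 CPM, from 20, 2 and 3 counts. At LP they were 14.7, 22.4 and 5.59 CPM in 2i+LIF, 11.1, 12.1 and 30.4 in CH+LIF, and 2.20, 7.97 and 3.85 in LIF. At HP they were 1.39, 2.73 and 0.958 CPM in 2i+LIF, 7.79, 15.7 and 7.62 in CH+LIF, and 0 in all 3 LIF libraries. At LP the LIF libraries lay below those of CH+LIF, and at HP the CH+LIF libraries lay above those of both other media. The log2 difference of CH+LIF HP from 2i+LIF HP was 2.53 ± 0.93 and did not pass (edgeR adjusted p 0.212, and 0.0392 without both libraries that stood apart).

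With pooled counts over TMM-scaled library sizes, and 3 counts taken as the most that the 0 counts of the 3 LIF HP libraries together allow, LIF HP was at least 16.8-fold lower in Gja1 than CH+LIF HP was (0 against 55 counts, edgeR adjusted p 0.0196). This was 1 of 6 genes where 1.47% of all genes were called. It was also at least 6.72-fold lower than LIF LP was (0 against 24 counts, edgeR adjusted p 0.0278), again 1 of 6 genes where 9.96% of all genes were called. Against 2i+LIF HP, with 9 counts, the bound was 2.7-fold and the difference did not pass (edgeR adjusted p 0.176). The call against CH+LIF HP was lost without CH+LIF HP replicate 2 (0.0801) and without any single LIF HP library (0.0718 to 0.111). The call against LIF LP was lost without LIF LP replicate 2 (edgeR adjusted p 0.0945) and without any single LIF HP library (0.0769 to 0.0978). In the joint test over cultured groups Gja1 passed under all 30 alternatives, with adjusted p of at most 0.0145.

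The call of Gja1 against PO, at least 3.88-fold lower in LIF HP (edgeR adjusted p 0.0376), rested on PO replicate 1 and was lost without that library (0.247), with limma-voom (0.49) and without any single LIF HP library (0.0889 to 0.128). PO replicates 2 and 3 had only 2 and 3 counts of Gja1, so the size of differences from them alone is imprecise. Without PO replicate 1, Gja1 was higher than in PO by 4.65 on the log2 scale in CH+LIF LP, 4.37 in 2i+LIF LP, 3.91 in CH+LIF HP and 2.73 in LIF LP (edgeR adjusted p 0.00254, 0.00404, 0.00988 and 0.0403). With that library included the edgeR adjusted p were 0.0807, 0.147, 0.261 and 0.8. With it included, CH+LIF LP passed with DESeq2 (0.0494) and with no filter (0.0163), and the first 3 passed with limma-voom and sample quality weights (0.000437, 0.00114 and 0.00087). From LP to HP in 2i+LIF, Gja1 had a log2 difference of -2.98 ± 0.92 with no overlap, which did not pass (edgeR adjusted p 0.0726). It passed with DESeq2 (0.0235), without both libraries that stood apart (0.0161), and without PO replicate 1 (0.0144), PO replicate 2 (0.045) or 2i+LIF LP replicate 3 (0.0474).

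The window upstream of Gja1 is shown because Gja1 had the lowest joint adjusted p of the 6 tested genes. It is chr10:56377050-56377299 on GRCm38.p6, plus strand. Capitals mark its only match to the motifs searched, an AP-1 motif 19 bases before the RefSeq start.
Gja1: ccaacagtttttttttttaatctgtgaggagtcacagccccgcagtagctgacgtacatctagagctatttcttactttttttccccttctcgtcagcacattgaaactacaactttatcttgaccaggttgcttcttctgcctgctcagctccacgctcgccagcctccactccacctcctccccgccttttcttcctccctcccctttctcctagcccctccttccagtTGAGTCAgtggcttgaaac

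Gjb5 (ENSMUSG00000042357, chromosome 4, 127354809 to 127358181, minus strand) encodes connexin 31.1, a gap junction protein of skin and trophoblast. In PO its levels were 20.1, 20.1 and 25.4 CPM. At LP they were 7.01, 29.3 and 19.0 CPM in 2i+LIF, 30.5, 35.7 and 41.0 in CH+LIF, and 23.7, 25.9 and 39.9 in LIF. At HP they were 14.4, 15.3 and 6.71 CPM in 2i+LIF, 20.1, 26.2 and 24.4 in CH+LIF, and 19.6, 32.6 and 24.7 in LIF. At both LP and HP every CH+LIF library lay above every 2i+LIF library, and at HP the LIF libraries did so as well. The log2 differences of CH+LIF from 2i+LIF were 0.92 ± 0.41 at LP and 0.92 ± 0.43 at HP, and neither passed (edgeR adjusted p 0.529 and 0.402). Nor did Gjb5 pass the joint test (0.124) or any comparison with PO, although the joint adjusted p was 0.0476 with DESeq2 and 0.0418 without both libraries that stood apart. Neighbouring groups in the order of mean levels all overlapped.

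Gjc1 (ENSMUSG00000034520, chromosome 11, 102799579 to 102819700, minus strand) encodes connexin 45, known from the early heart and smooth muscle. In PO its levels were 287, 78.4 and 58.6 CPM. At LP they were 119, 97.7 and 87.8 CPM in 2i+LIF, 67.8, 86.0 and 128 in CH+LIF, and 53.4, 60.4 and 72.1 in LIF. At HP they were 87.8, 46.9 and 61.3 CPM in 2i+LIF, 106, 123 and 99.8 in CH+LIF, and 49.99, 51.7 and 60.8 in LIF. The value of 287 CPM came from PO replicate 1, where Gja1 was also far above the other PO libraries. At HP every CH+LIF library lay above those of both other media.

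Gjc1 was lower in LIF HP than in PO by 1.38 ± 0.43 on the log2 scale (edgeR adjusted p 0.0367), with overlap. Without PO replicate 1 the difference fell to -0.37 (edgeR adjusted p 0.567), and without any single LIF HP library the adjusted p was between 0.0879 and 0.128. Between LIF HP and CH+LIF HP the Gjc1 difference was -1.02 ± 0.43 on the log2 scale and did not pass (edgeR adjusted p 0.258). It passed without both libraries that stood apart (0.0291), in a fit of only the groups compared (0.00927) and with limma-voom (0.01). The joint test over cultured groups gave 0.289, and 0.0376 without both libraries that stood apart. It gave 0.0385 with limma-voom and 0.044 without PO replicate 1 alone.

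**Figure D2:**
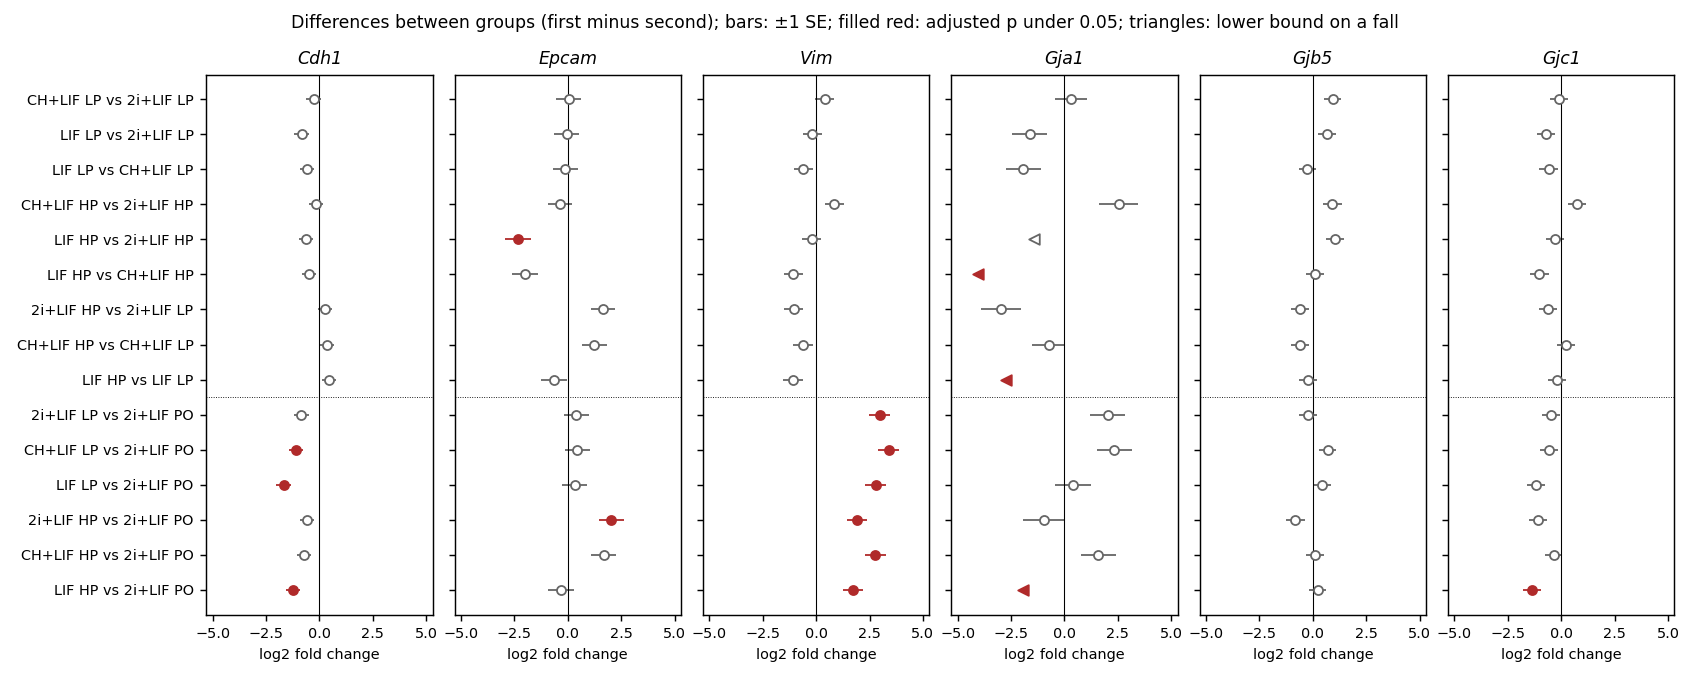
Log2 fold change (horizontal axes, first group minus second) of the 6 tested genes in 15 comparisons, with bars of 1 SE, red filled symbols for an edgeR adjusted p under 0.05, and triangles for Gja1 where LIF HP had no counts and the value is a bound. Above the dotted line, the red symbols are 1 for Epcam and 2 for Gja1; below it, Vim is red in all 6 comparisons with PO.

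Counted over the 9 comparisons within the run of the cultured groups, 3 of 54 gene-by-comparison tests passed, all 3 with the gene lower in LIF HP, beside 2.38% of the tests of all genes. In the LIF HP libraries 30.3, 35.4 and 34.3% of the counted entries were alignments that were not unique, where the median of the 21 libraries was 26.3%, and 0.549, 0.573 and 0.683% were ambiguous, where it was 0.404%. Their TMM factors were 0.96, 0.85 and 0.65. The part of these measures in the 3 calls was not tested. Of 6 genes tested, 0 were called among media at LP, where 0% of all genes were called for CH+LIF against 2i+LIF, 0.489% for LIF against 2i+LIF and 0.047% for LIF against CH+LIF. None of the 6 was called at HP for CH+LIF against 2i+LIF (2.02% of all genes), between HP and LP in 2i+LIF (3.67%) or between HP and LP in CH+LIF (0.0094%). The median log2 difference of the 6 genes was -1.04 in LIF HP against CH+LIF HP, beside 0.0074 for all genes, and -0.46 in LIF HP against 2i+LIF HP, beside -0.02. For CH+LIF against 2i+LIF at HP, where no member was called, the median was 0.80, beside -0.0080. In the other 6 comparisons it lay between -0.61 and 0.18. The count of 3 became 0 without LIF HP replicate 1 or 3, 1 without LIF HP replicate 2, and 6 without PO replicate 1. Leaving out 2i+LIF HP replicate 2 or 3, or LIF HP replicate 1 or 3, reduced the 2 genes of the joint test to 1, and leaving out PO replicate 1 raised them to 4.

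Against PO, 12 of 36 tests passed, 7 with the gene higher and 5 with it lower. Vim alone was called in 2i+LIF LP (1 of 6, with 5.06% of all genes called) and in CH+LIF HP (1 of 6, 5.82%). Vim and Cdh1 were called in CH+LIF LP (2 of 6, 8.31%) and in LIF LP (2 of 6, 12% of all genes), and Vim and Epcam in 2i+LIF HP (2 of 6, 10.6%). In LIF HP 4 of 6 were called (12.3% of all genes): Vim was higher, as were 7.1% of all genes, and Cdh1, Gja1 and Gjc1 were lower, as were 5.17% of all genes. These comparisons share the PO libraries. Without LIF HP replicate 3 the 12 calls became 7.

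Whether the change from LP to HP differed between media was tested as an interaction. No member passed in the edgeR fit of all 21 libraries with the filter on low counts, or with DESeq2, where in edgeR 0.0188% of all genes passed for CH+LIF with 2i+LIF, 0.15% for LIF with 2i+LIF and 0.423% for LIF with CH+LIF. At an unadjusted p under 0.05 there were 0, 1 and 2 members, and limma-voom called 1 in LIF with CH+LIF, which was Epcam (0.0436). For Epcam the log2 change from LP to HP differed by -2.29 ± 0.84 between LIF and 2i+LIF (edgeR adjusted p 0.285, and 0.0422 with no filter). Between LIF and CH+LIF the Epcam change had an edgeR adjusted p of 0.381, and 0.0403 in a fit of only the groups compared, where Gja1 passed as well (0.0464, and 0.303 otherwise). A difference between media in these changes thus passed in some fits and not in others.

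**Figure D3:**
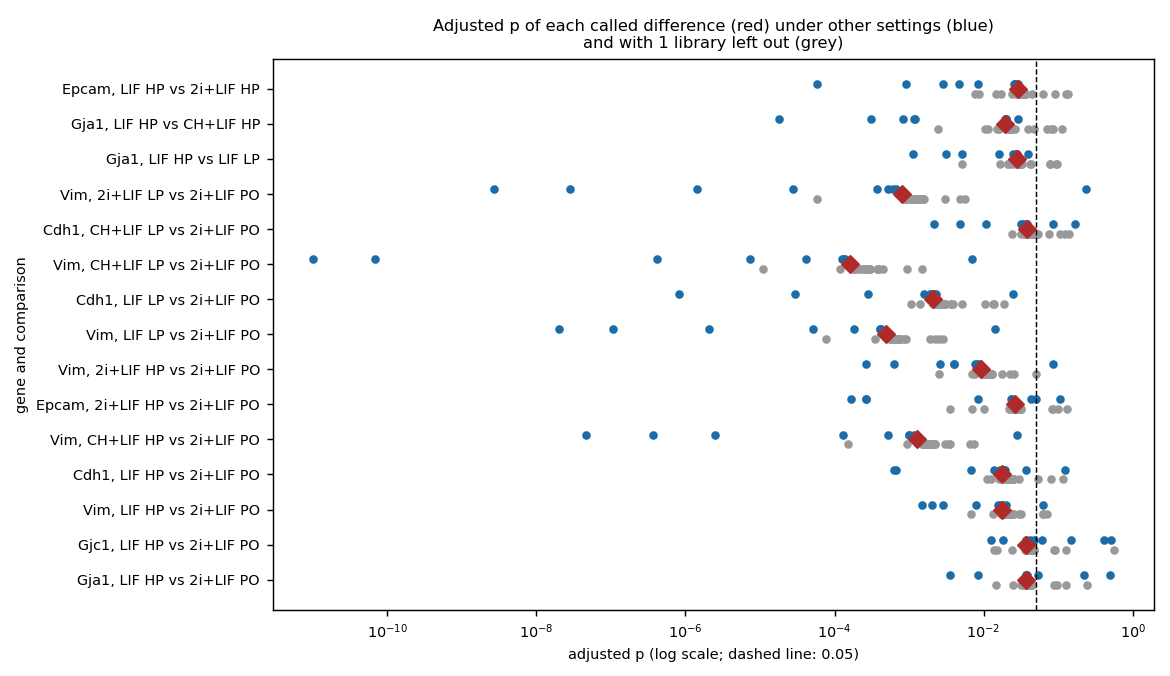
Adjusted p (horizontal axis, log scale, dashed line at 0.05) of each of the 15 called differences of the 9 genes: red diamonds for the value reported, blue points for other settings and grey points with 1 library left out. All points of Cdh1 in LIF LP and of Vim in CH+LIF LP, LIF LP and CH+LIF HP lie left of the line, whereas the Gjc1 and Gja1 differences of LIF HP from PO reach 0.567 and 0.49.

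To place these genes among their partners, 98 further genes of adhesion, junctions, keratins and mesenchymal state were listed, of which 48 had enough counts. Of the 48, 16 (33.3%) differed among the cultured groups in the joint test, beside 13.1% of all genes. Within the run, 22 of 432 tests of these genes passed (5.09%), 11 higher and 11 lower, in 14 genes, beside 2.38% of the tests of all genes. Of those 22, 5 passed under every alternative that gave the gene a value, and none turned in direction. Among the 5 were Cldn4, F11r and Nectin3 in LIF HP against LIF LP and Krt7 between CH+LIF and 2i+LIF at HP. The lists were chosen with results of these libraries known, so their counts are descriptions.

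Of 16 cadherins, catenins and nectins, 11 were tested and 3 differed among cultured groups: Nectin1, Cdh4 and Nectin3 (edgeR adjusted p 0.00523, 0.00648 and 0.00968). Cdh4, which encodes R-cadherin, was low in LIF HP, at 4.74 ± 3.24 CPM (SD, n = 3). It was 15.6 ± 3.4 CPM in LIF LP and, at HP, 19.0 ± 3.9 in 2i+LIF and 28.5 ± 5.7 in CH+LIF. All 3 of those differences from LIF HP passed (edgeR adjusted p 0.0304, 0.0265 and 0.0076), and each was lost without LIF HP replicate 2 (0.164, 0.152 and 0.0846) and without LIF HP replicate 3. The first was also lost without any LIF LP library, and the second without 2i+LIF HP replicate 1 or 3. Nectin3, a nectin that supports the first contacts between cells, fell from 136 ± 15 CPM in LIF LP to 26.0 ± 12.7 in LIF HP (edgeR adjusted p 0.0027). Nectin1 was 4.04 ± 3.53 CPM in 2i+LIF HP, against 38.7 ± 4.4 in 2i+LIF LP (edgeR adjusted p 0.00212, and 0.0545 in a fit of only those groups). Nectin2 moved the other way in that comparison, to 131 ± 17 CPM in 2i+LIF HP from 55.6 ± 28.5 in 2i+LIF LP (edgeR adjusted p 0.0374). That call was lost under 9 of 30 alternatives, with 0.354 in a fit of only those groups. The median log2 difference of the 11 tested genes in LIF HP against LIF LP was -0.79, beside 0.0077 for all genes, and in the other 8 comparisons within the run it lay between -0.62 and 0.23.

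Of 9 desmosome genes, 6 were tested and 3 differed among cultured groups: Perp, Dsg2 and Pkp3 (edgeR adjusted p 0.00217, 0.013 and 0.0378). Dsg2, a desmosomal cadherin, was 229 ± 26 CPM in 2i+LIF HP and 88.8 ± 15.0 in LIF HP (edgeR adjusted p 0.0178), the same direction as Epcam in that comparison. Perp, a desmosomal membrane protein, went the other way, with 3.18 ± 2.01 CPM in 2i+LIF HP and 20.2 ± 8.4 in LIF HP (edgeR adjusted p 0.00761). The Dsg2 call was lost without 2i+LIF HP replicate 2 or 3 or LIF HP replicate 2 or 3 (up to 0.102), and the Perp call was lost without LIF HP replicate 2 (0.0717).

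Of 21 genes of tight junctions and of Epcam partners, 12 were tested and 3 differed among cultured groups. All 3 were higher in LIF HP than in LIF LP, where 9.96% of all genes were called. F11r, which encodes the junctional adhesion molecule JAM-A, was 158.1 ± 42.2 against 34.8 ± 8.7 CPM (edgeR adjusted p 0.00284). Cldn4, a claudin, was 83.4 ± 4.5 against 19.2 ± 7.2 CPM (edgeR adjusted p 0.00654), and St14, the protease matriptase, was 38.8 ± 10.2 against 11.2 ± 4.6 (0.0171). The St14 call was lost without LIF LP replicate 2 or 3 or LIF HP replicate 1 (up to 0.0828). Epcam itself had a log2 difference of -0.65 ± 0.61 in that comparison and did not pass (edgeR adjusted p 0.54).

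Among the connexins followed here, Gja1 fell from LIF LP to LIF HP, while Gjb5 and Gjc1 did not pass there (edgeR adjusted p 0.784 and 0.817). In that comparison 9.96% of all genes were called.

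Of 17 keratins, epithelial regulators and polarity genes, 11 were tested and 5 differed among cultured groups: Krt7, Grhl2, Krt18, Rab25 and Krt8 (edgeR adjusted p 0.00038, 0.000497, 0.00201, 0.00529 and 0.0124). Krt7, a keratin of simple epithelia, had 102 counts in 2i+LIF HP and none in CH+LIF HP, at least 33.5-fold lower (edgeR adjusted p 0.00674). Krt18, another keratin of simple epithelia, was 32.7 ± 24.1 CPM in 2i+LIF HP and 2.67 ± 0.90 in 2i+LIF LP (edgeR adjusted p 0.0118), a call lost without 2i+LIF HP replicate 3 (0.0836) or 2i+LIF LP replicate 2 and in a fit of only those groups. Grhl2, a transcription factor that maintains epithelial junction genes, was 20.4 ± 9.8 CPM in 2i+LIF HP and 2.30 ± 1.76 in LIF HP (edgeR adjusted p 0.0249), the direction that Epcam took. That Grhl2 call was lost without 2i+LIF HP replicate 2 or 3 or LIF HP replicate 1 or 3 and with counts thinned to the smallest library (up to 0.11). In LIF LP Grhl2 had 1 count against 41 in 2i+LIF LP (edgeR adjusted p 0.0227), a ratio of 40 with a 95% interval of counting error from 6.79 to 1620. This call was lost without 2i+LIF LP replicate 1 or any LIF LP library (up to 0.18). Epcam showed no such difference at LP, with 22.5 CPM in LIF and 23.1 in 2i+LIF (edgeR adjusted p 0.983).

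Of 16 mesenchymal genes and transition factors, 5 were tested and 1 differed among cultured groups. Mmp14, a membrane-bound matrix metalloproteinase, was 0.956 ± 1.215 CPM in 2i+LIF HP, against 12.0 ± 6.4 in 2i+LIF LP (edgeR adjusted p 0.0213). The other media at HP were higher, at 11.2 ± 2.6 CPM in CH+LIF (0.0422) and 10.4 ± 3.6 in LIF (0.0419). All 3 calls were lost without 2i+LIF HP replicate 2 or 3 (without replicate 2, 0.124 against 2i+LIF LP and 0.201 for CH+LIF HP), and with limma-voom and sample quality weights, and the comparison with 2i+LIF LP also without its replicate 2. The calls of CH+LIF HP and LIF HP were lost under 12 and 10 of 30 alternatives, among them the omission of any library of their own group. The other 11 genes of this list had too few counts.

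**Figure D4:**
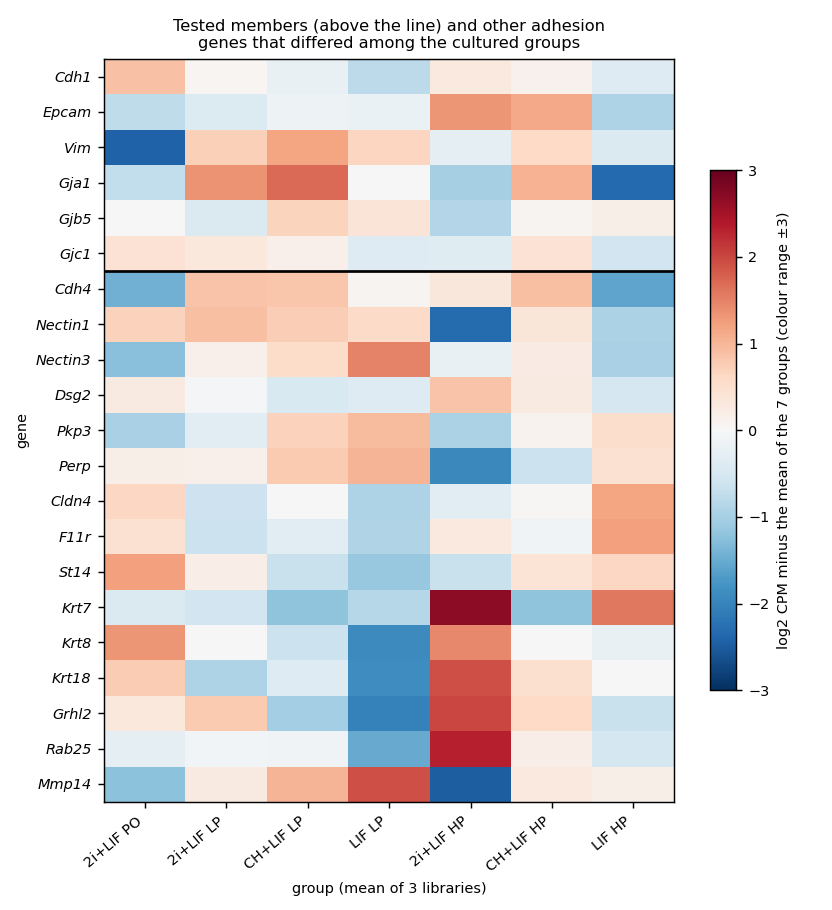
Mean log2 CPM of each group (columns, 3 libraries each) less the mean of the 7 groups, as colour from -3 to 3, for the 6 tested genes (above the line) and 15 of the 16 further adhesion genes that differed among the cultured groups (below it). Krt7, Krt18, Grhl2 and Rab25 are red in 2i+LIF HP, F11r and Cldn4 are red in LIF HP, and Gja1 is deep blue in LIF HP.

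In PO, Cdh1 was highest and Vim lowest. Embryonic stem cell markers had negative median log2 differences from PO in every cultured group. Their summed level was 3050 to 3870 CPM in PO and 1330 to 3080 CPM in the cultured libraries. Of the 9 markers, those called lower than in PO numbered 3 in 2i+LIF LP, 5 in CH+LIF LP, 5 in LIF LP, 6 in 2i+LIF HP, 1 in CH+LIF HP and 3 in LIF HP, and 1 was called higher, in LIF HP. Their median log2 differences lay between -1.37 and -0.75, in comparisons where 5.06 to 12.3% of all genes were called. The medians did not follow the size of the Cdh1 or Vim differences over the groups. The lowest, -1.37, was that of 2i+LIF HP, where the Cdh1 difference was smallest, at -0.60 ± 0.33 (edgeR adjusted p 0.253). In LIF LP, where the Cdh1 difference was largest (-1.68), the median was -1.02. The part of these markers in the Cdh1 and Vim differences was not tested.

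Markers of other cell types were low but not equal among groups. The summed level of 4 mesendoderm markers was 20 to 39.8 CPM in 2i+LIF HP, where Epcam, Krt7 and Krt18 were highest, with all 4 detected, and 0 in LIF LP. In LIF HP that sum was 5.15 to 16 CPM, with Mixl1 and Mesp1 at 0. The summed level of 7 trophectoderm markers was 126 to 166 CPM in LIF HP, where F11r and Cldn4 were highest, 34.9 to 108 in the other cultured groups and 90.7 to 133 in PO, which overlaps LIF HP. Most of it came from Tfap2c (142.1 ± 17.8 CPM in LIF HP), while Elf5 and Ascl2 had no counts there and Cdx2 averaged 1.30 CPM. The part of these markers in the differences was not tested. The 7 fibroblast markers summed to at most 36.9 CPM in any library and to 14.1 to 21.4 CPM in PO, where Vim was lowest, and Dcn had no counts in any cultured group. The 10 primitive endoderm markers summed to between 16.8 and 79.8 CPM, with Sox17 at 0 in PO, the 3 LP groups and LIF HP.

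The genes whose log2 CPM ran most nearly parallel to each tested gene over the 21 libraries were sought among 9459 genes with a mean of at least 5 CPM. These likenesses are descriptions of libraries that share group, depth and run. For Cdh1 they were Ly6c1 (Pearson r 0.8), Gfpt1 (0.781) and Rbm47 (0.776). For Vim they were Ddx3y (0.888), Ppp2ca (0.876) and Ndrg2 (0.875), and for Epcam Zfp72 (0.856), Retreg2 (0.804) and Hist1h2bc (0.802). Among connexins, Gja1 was most like Maco1 (0.903), Ddx58 (0.857) and Chek1 (0.833). Gjb5 was most like Ubald2 (0.93), Tuba1a (0.878) and Scarb2 (0.876), and Gjc1 like Tcof1 (0.836), Riok1 (0.829) and Amer1 (0.829).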

How the data were processed

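Counts per Ensembl gene ID were deposited by the authors as 1 table of whole numbers per library, not normalized. Per the submitters' processing notes, bcl2fastq, STAR 2.6.0a and HTSeq were used with the mm10 build, with no role or order given; the annotation, strand setting and filters are not given in the sources used here. The 5 closing entries of each table (reads outside genes, ambiguous, not unique and the like) stayed out of library sizes and tests; gene counts were 47.4 to 62% of all entries. Gene symbols and coordinates were taken from GENCODE M21 (GRCm38), which held 31011 of the 31053 IDs and not the other 42.

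All 21 libraries entered 1 edgeR 4.0.16 quasi-likelihood fit in R 4.3.3, scaled by TMM and filtered by filterByExpr to 10643 genes, with 1 coefficient for each group (14 residual degrees of freedom). P-values were two-sided and adjusted by Benjamini-Hochberg over all genes of a comparison, with a threshold of 0.05. SE is the absolute log2 fold change divided by the square root of F. CPM use TMM-scaled library sizes of the tested genes, with a prior count of 2 on the log2 scale. A count of 0 allows up to 3 counts. Bounds and ratios used counts pooled over a group and divided by TMM-scaled library sizes, with 95% intervals for counting error only. No libraries of a group agreed within sampling noise, as 1 library deposited repeatedly would (chi-square per degree of freedom at least 4.82). The steps were tested on simulated counts.

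The 9 genes and all lists were chosen with earlier results of these data known. Genes of the lists were named where they were among the 3 largest changes of a list in a comparison with adjusted p under 0.05 and no overlap, or among the 5 lowest joint adjusted p; for likeness, the 3 highest correlations were named. Promoter sequences are RefSeq's on GRCm38.p6 (6 of 9 genes matched). Alternatives were DESeq2 1.42.0, its size factors in edgeR, no filter, thinning to the smallest library, only the groups compared, a replicate block, omission of the 2 libraries that stood apart, scaling without Gm42418 and mitochondrial genes, limma 3.58.1 voom with quality weights, and omission of each library, 30 in all.

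Groups share replicate numbers, with nothing stating that a number marks a shared culture or day. Deviations of same-numbered libraries correlated at over 0.1 in all 3 pairs in 1 of 15 comparisons, 2i+LIF LP against PO (0.397, 0.345 and 0.179), where Vim stayed the only call with the replicate block. The result of 1 further listed gene is not reported here.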

Additional observations from a re-analysis of the deposited data

How the results depend on the processing

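The 2 genes called in the joint test became 5 with DESeq2, 5 without the 2 libraries that stood apart and 5 with limma-voom, and ranged from 1 to 4 with 1 library left out. The 3 calls in comparisons within the run became 5 with DESeq2, 6 with no filter, 7 in fits of only the groups compared, 10 without the 2 libraries that stood apart and 8 with limma-voom, and ranged from 0 to 6 with 1 library left out. The 12 calls against PO became 4 in fits of only the groups compared and ranged from 7 to 14 with 1 library left out. The 0 calls of interactions became 1 with no filter, 2 in fits of only the groups compared and 1 with limma-voom, and stayed at 0 with 1 library left out. The cause of these changes was not tested. The 16 list genes of the joint test ranged from 12 to 21 over all 30 alternatives. With the replicate block the counts were 3 in the joint test (Vim added, edgeR adjusted p 0.0337), 3, 12, 0 and 16, and no called difference of the 9 genes was lost. None of the 15 called differences turned in direction under any alternative. Another scaling moved the median of all genes by at most 0.0481 on the log2 scale.

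Over all genes, the 1390 called in the joint test ranged from 880 to 2687, the 402 of LIF HP against 2i+LIF HP from 123 to 1427, and the 1060 of LIF HP against LIF LP from 399 to 2747. Depth limits Cdh2 and Cldn6, with at most 8 and 4 counts in any library, Cldn7, and the level of Gja1 in LIF HP.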
